A study of Mus musculus with 12 samples.

Results

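From the 20422 genes read on liver arrays from mice fed trans fat with or without aspartame (ASP) and monosodium glutamate (MSG), 10 were taken. They encode enzymes that act on methanol, which aspartame releases, on its one-carbon products formaldehyde and formate, or in the folate pool that formate enters. They were Cat, Adh1, Adh4, Adh5, Aldh2, Esd, Aldh1l1, Mthfd1, Shmt1 and Shmt2. They were picked by name for the pathway, with earlier results of these data known. Every row of the array table annotated to a single one of these symbols was taken, 147 probe sets of 212138, and the value of a gene was the mean log2 intensity of its probe sets. Mthfd1 was read by 29 probe sets, Aldh1l1 by 24, Cat and Shmt2 by 16 each, Shmt1 by 15, Aldh2 by 14, Adh5 by 9, and Adh1, Adh4 and Esd by 8 each. All 10 were measured in every array, and no gene was dropped by a filter.

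The liver RNA came from male C57Bl/6J mice aged 20 weeks, on 12 Affymetrix Mouse Gene 1.0 ST arrays, 3 for each diet. Livers of 5 overnight-fasted animals went into every array, so that an array is a pool and the mice within it cannot be told apart. All 4 groups ate the trans fat diet (TFA), with 20% shortening and 8.68% trans fat, and no group without trans fat was on these arrays. The TFA group drank water without additives, the MSG + TFA group received MSG at 0.75 g/L, the ASP + TFA group aspartame at 0.25 g/L, and the ASP + MSG + TFA group both. Exposure began in utero through the dams, which had been on the diets from 6 weeks of age and for 3 weeks before mating, and went on after weaning at 4 weeks.

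Aspartame is split in the gut into aspartate, phenylalanine and methanol, and the liver clears the methanol. In rodents catalase (Cat) oxidizes it to formaldehyde with hydrogen peroxide, and alcohol dehydrogenase (Adh1) can do so too. Formaldehyde joins with glutathione, the adduct is oxidized by Adh5 and split by Esd to give formate, mitochondrial Aldh2 oxidizes free formaldehyde, and formate then enters the folate pool, where the folate enzymes use its carbon or release it as CO2.

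The label of the tissue was borne out by liver transcripts, and the mean log2 intensity of 13 hepatocyte markers lay between 13.57 and 13.79 in the 12 pools. Transcripts of neighbouring tissues differed between pools. The mean of 14 pancreatic acinar markers, of 16 listed, ranged over 6.08 to 7.28 in TFA, 6.05 to 6.68 in MSG + TFA, 6.02 to 8.50 in ASP + TFA and 6.12 to 7.95 in ASP + MSG + TFA pools. Highest were ASP + TFA pool 3 at 8.50 and ASP + MSG + TFA pools 2 and 1 at 7.95 and 7.71. For 15 skeletal muscle markers the mean ranged over 6.74 to 7.21 in TFA and 6.00 to 6.58 in the other 9 pools, with no overlap, and 10 of the 15 passed the test in at least 1 comparison against TFA. No marker reads at 0 on these arrays. Fewer cells of a type and less RNA per cell cannot be told apart in such pools.

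None of the 10 genes passed the test in any comparison between diets. With limma and Benjamini-Hochberg adjustment over all 20422 genes, 0 of 10 were called at an adjusted p under 0.05 with MSG, with ASP or with ASP + MSG against TFA, and 0 were under an unadjusted p of 0.05. Of all genes, MSG called 0.0196%, ASP 0.284% and ASP + MSG 0.0392%, and 5.81%, 10.1% and 10.1% were under an unadjusted p of 0.05. On the log2 scale the differences from TFA ran from -0.13 to 0.16 under MSG, from -0.16 to 0.14 under ASP, and from -0.12 to 0.20 under ASP + MSG. Their medians over the 10 genes were 0.02, 0.03 and 0.03, beside medians over all genes of 0.00, 0.02 and 0.01. The 95% intervals of all 30 differences from TFA stayed within a 1.4-fold change in either direction, so that changes above that size lie outside them. Spread between the 3 pools of a diet had a median SD of 0.0865 on the log2 scale and ran from 0.0383 to 0.334.

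**Figure D1:**
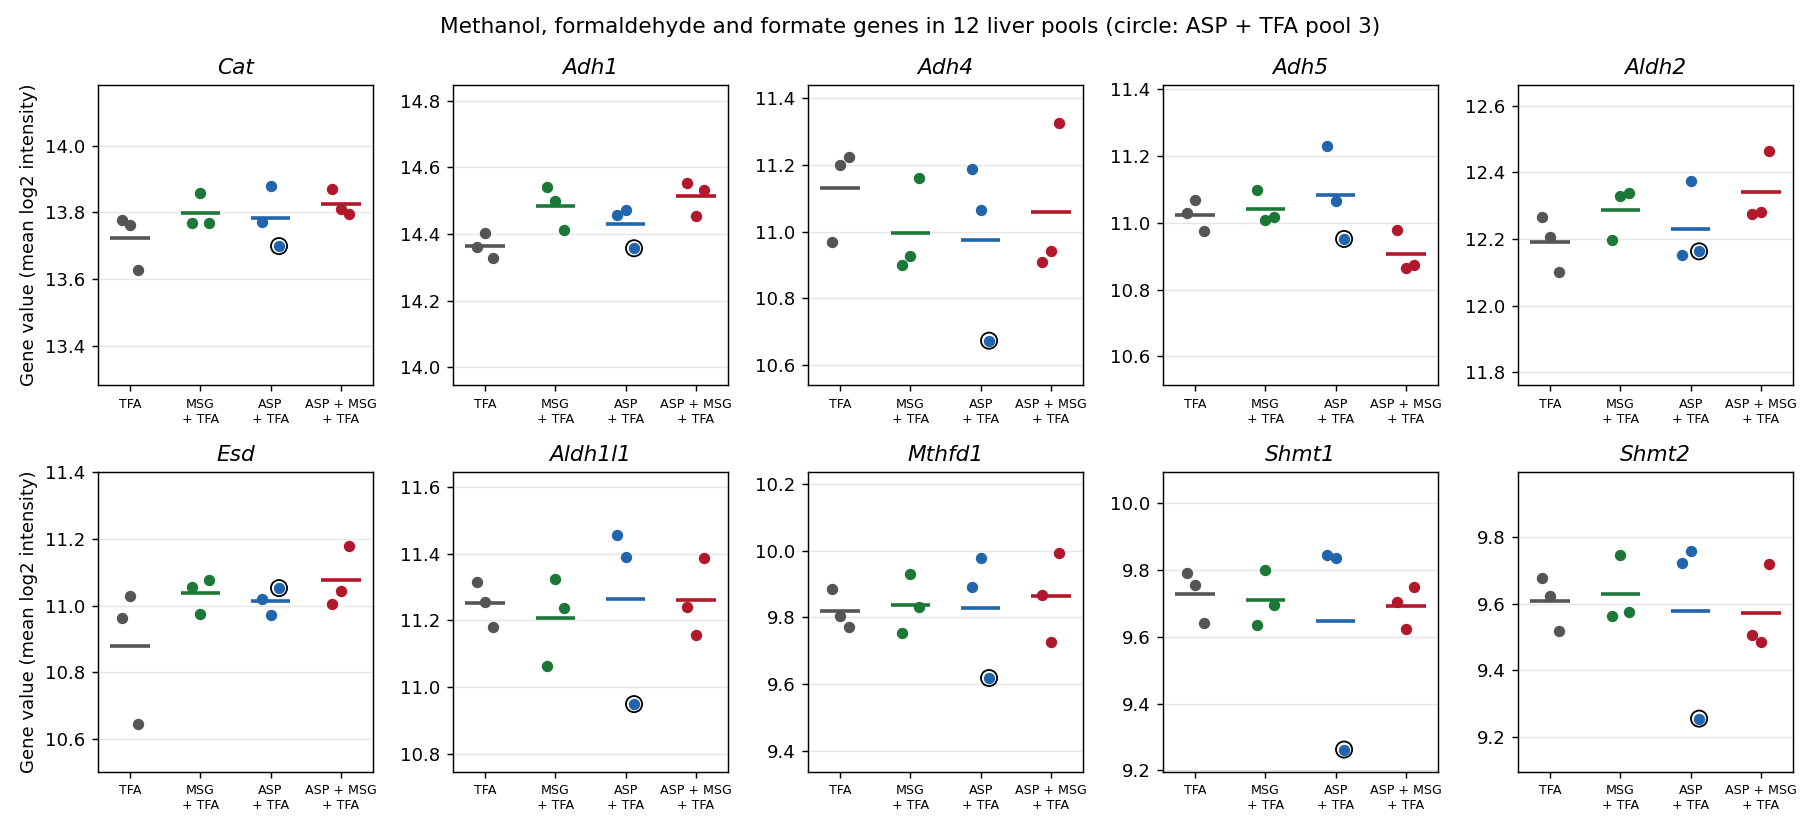
Gene values of the 10 genes, as mean log2 intensity over their probe sets (vertical axes, each spanning 0.9 log2 units), in the 12 liver pools by diet (horizontal axes). Points are pools, bars are means of 3 pools, and the ringed point is ASP + TFA pool 3, the lowest pool for Adh4, Aldh1l1, Mthfd1, Shmt1 and Shmt2.

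**Figure D2:**
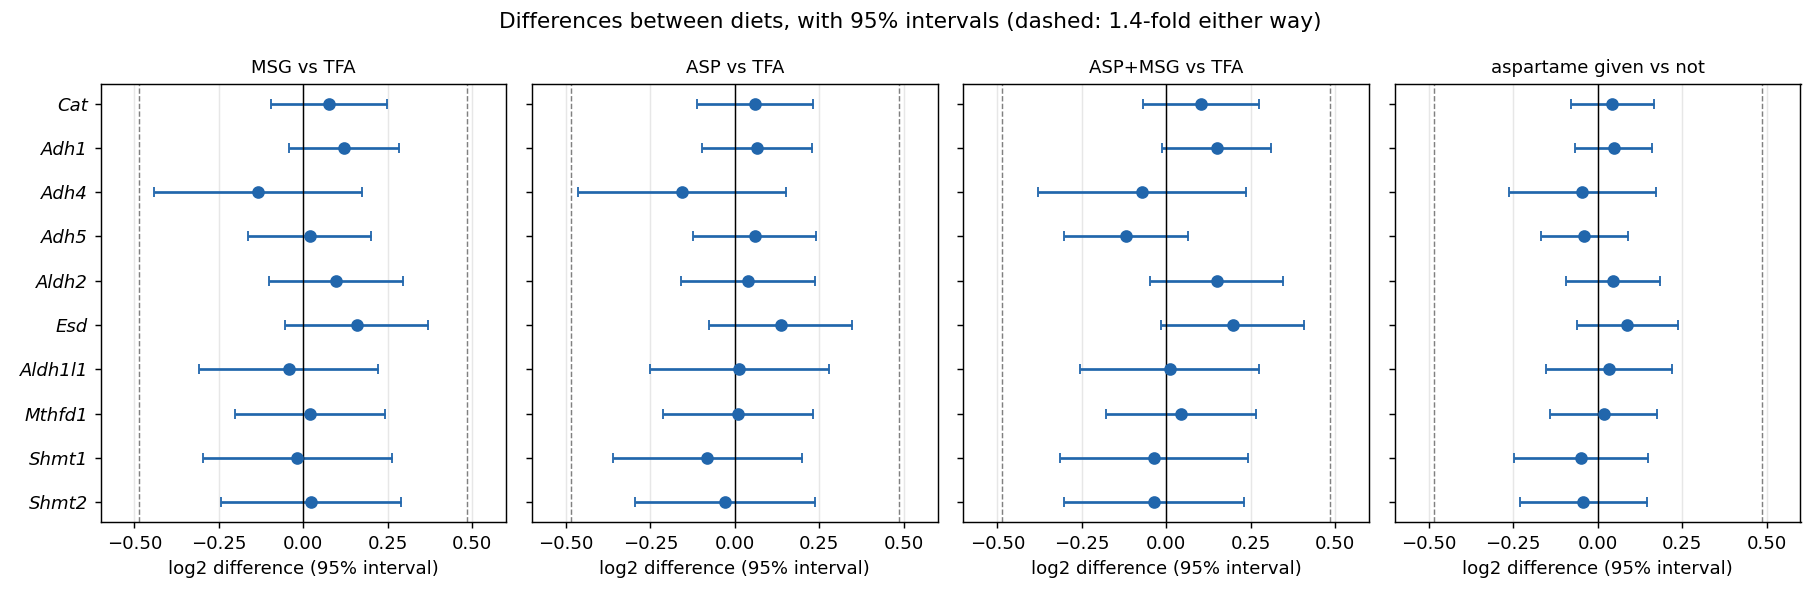
Log2 difference between diets (horizontal axes) for each gene (vertical axis), for MSG, ASP and ASP + MSG against TFA and for aspartame given against not given. Points are limma estimates over 12 arrays, bars are 95% intervals, dashed lines mark 1.4-fold, and every interval holds 0 and stays inside the dashed lines.

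Among the methanol oxidizers, Cat encodes catalase, the peroxisomal enzyme that breaks down hydrogen peroxide. Its log2 value was 13.78, 13.76 and 13.63 in TFA pools 1 to 3, 13.77, 13.86 and 13.77 with MSG, 13.77, 13.88 and 13.70 with ASP, and 13.87, 13.81 and 13.79 with ASP + MSG. All 3 ASP + MSG pools lay above all TFA pools, while the MSG and ASP pools overlapped them. The difference between ASP + MSG and TFA was 0.10 ± 0.08 (SE), or 1.07-fold with a 95% interval of 0.953 to 1.21 (adjusted p = 0.686). With ASP alone it was 0.06 ± 0.08 (adjusted p = 0.866). Without TFA pool 3, the lowest for Cat, these differences were 0.05 and 0.01.

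Adh1, the class I alcohol dehydrogenase that oxidizes ethanol, read 14.36, 14.40 and 14.33 in the TFA pools. With MSG it read 14.54, 14.50 and 14.41, with ASP 14.46, 14.47 and 14.36, and with ASP + MSG 14.55, 14.45 and 14.53. The MSG pools and the ASP + MSG pools all lay above the 3 TFA pools, and an ASP pool overlapped them. Adh1 was 1.11-fold higher with ASP + MSG than with TFA, with an interval of 0.991 to 1.24 (adjusted p = 0.533), and 1.09-fold higher with MSG, with an interval of 0.972 to 1.22 (adjusted p = 0.915). Neither passed the test. All 8 of its probe sets had a higher mean with ASP + MSG than with TFA, and all 8 with MSG, while 5 of 8 did with ASP. Probe sets of a gene read the same RNA and are no replicates.

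Adh4, a class II alcohol dehydrogenase, had the largest within-diet SD of the 10 genes when pooled over the 4 diets, 0.20 on the log2 scale, though the largest within a single diet was that of Shmt1 with ASP. It read 10.97, 11.20 and 11.22 with TFA, 10.90, 10.93 and 11.16 with MSG, 11.19, 11.06 and 10.67 with ASP, and 10.91, 10.94 and 11.33 with ASP + MSG. Every diet overlapped every other, and the highest and the lowest pool, both from aspartame groups, were 1.57-fold apart. Against TFA the differences were -0.13 (MSG), -0.16 (ASP) and -0.07 (ASP + MSG), each ± 0.14 (SE), at adjusted p of 0.980, 0.793 and 0.893. For Adh4 the intervals were the widest of the 10 genes, down to 0.726-fold with ASP.

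Formaldehyde oxidation through glutathione was read by Adh5, the dehydrogenase of the glutathione adduct, and Esd, the esterase that frees formate from it. Adh5 read 11.03, 11.07 and 10.97 with TFA, 11.10, 11.01 and 11.02 with MSG, 11.23, 11.07 and 10.95 with ASP, and 10.98, 10.86 and 10.87 with ASP + MSG. The ASP + MSG pools all lay below the MSG pools, and they overlapped the TFA pools and the ASP pools by 1 pool each. Against ASP the difference of ASP + MSG was -0.18 ± 0.09 (SE), or 0.884-fold with an interval of 0.779 to 1.00 (adjusted p = 0.608, at an unadjusted p of 0.0561), against MSG it was -0.14 (adjusted p = 0.836), and against TFA -0.12 (adjusted p = 0.657). Without ASP + TFA pool 3 the difference from ASP was -0.24, with an unadjusted p of 0.0140 and an adjusted p of 0.228. With the median over the 9 probe sets in place of the mean it turned to 0.20 (adjusted p = 0.769), and with the brighter probe sets only it was -0.11 (adjusted p = 0.732). The interaction of the additives, the part of the ASP + MSG difference not given by the sum of both single differences, was -0.20 ± 0.12 for Adh5 (adjusted p = 0.785), and 0.17 with the median over probe sets (adjusted p = 0.897).

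Esd read 10.96, 11.03 and 10.65 with TFA, 11.06, 10.98 and 11.08 with MSG, 11.02, 10.97 and 11.05 with ASP, and 11.01, 11.04 and 11.18 with ASP + MSG. TFA pool 3 was the lowest of the 12, below the other TFA pools by more than any of the remaining pools differed, and every additive group overlapped the TFA range. Its differences from TFA, 0.16 (MSG), 0.14 (ASP) and 0.20 (ASP + MSG), each ± 0.10 (SE), were the highest of the 10 genes under all 3 diets. Without TFA pool 3 they were 0.04, 0.02 and 0.08, and Adh1 then stood higher under each diet. Over all 12 pools, Esd with ASP + MSG was 1.15-fold that with TFA, with an interval of 0.989 to 1.33 (adjusted p = 0.533, at an unadjusted p of 0.0670). All 8 Esd probe sets had a higher mean with ASP + MSG than with TFA.

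Aldh2, the mitochondrial aldehyde dehydrogenase best known for clearing acetaldehyde, read 12.27, 12.21 and 12.10 with TFA and 12.20, 12.33 and 12.34 with MSG. It read 12.15, 12.37 and 12.16 with ASP and 12.27, 12.28 and 12.47 with ASP + MSG. The lowest ASP + MSG pool stood just above the highest TFA pool, both 12.27 after rounding, and the other diets overlapped TFA. The difference of ASP + MSG from TFA was 0.15 ± 0.09 (SE), or 1.11-fold with an interval of 0.967 to 1.27 (adjusted p = 0.611). With ASP it was 0.04 ± 0.09 (adjusted p = 0.941). Without TFA pool 3, the lowest for Aldh2, the ASP + MSG and ASP differences from TFA were 0.10 and -0.01.

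Cat, Adh1 and Aldh2 were thus 3 of the 10 genes, or 30%, whose ASP + MSG pools all lay above the TFA pools, beside 10% of all genes. None lay wholly below, beside 7.9% of all genes. With MSG 1 of 10 lay wholly above, Adh1, beside 6.45% of all genes, and with ASP none did, beside 8.48%. None lay wholly below with MSG or ASP, beside 6.75% and 4.92%. Means of some of the 11 marker lists also differed between these groups, and the lists given here are named for pools that did not overlap. Muscle markers were higher in all TFA pools, and the mean of 7 Kupffer cell markers was 8.61 to 8.66 with TFA and at most 8.60 in the other pools. With ASP + MSG the mean of 7 adipocyte markers was 7.39 to 7.59, against 7.22 to 7.25 with TFA, and that of 4 cholangiocyte markers 6.59 to 6.61, against 6.50 to 6.53. No gene of the Kupffer cell, adipocyte or cholangiocyte lists passed the test against TFA. The cholangiocyte mean lay under 6.89, the median level of probe sets, in every pool. With the muscle mean as a covariate the ASP + MSG difference from TFA was -0.01 for Aldh2 in place of 0.15, 0.05 for Cat in place of 0.10 and 0.16 for Adh1 in place of 0.15. The muscle mean itself sets the TFA pools apart, so that this fit cannot tell muscle transcripts from the TFA group. The part of muscle was thus not resolved, and that of the other markers was not tested.

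The folate arm holds 4 genes. Mthfd1 encodes the cytosolic enzyme that ties formate to tetrahydrofolate, Aldh1l1 the dehydrogenase that releases the formyl group as CO2, and Shmt1 and Shmt2 the cytosolic and mitochondrial serine hydroxymethyltransferases, which move carbon from serine onto folate. None differed from TFA by more than 0.08 on the log2 scale under any diet. Their values rose and fell together from pool to pool, and all 4 were lowest in ASP + TFA pool 3.

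For Mthfd1 the pools read 9.88, 9.80 and 9.77 with TFA, 9.75, 9.93 and 9.83 with MSG, 9.89, 9.98 and 9.62 with ASP, and 9.87, 9.73 and 9.99 with ASP + MSG. Aldh1l1 read 11.32, 11.25 and 11.18 with TFA, 11.06, 11.32 and 11.24 with MSG, 11.46, 11.39 and 10.95 with ASP, and 11.24, 11.16 and 11.39 with ASP + MSG. In both genes the diets overlapped throughout, and the ASP group held both a pool near the top and the lowest pool. The ASP differences from TFA were 0.01 ± 0.10 (SE) for Mthfd1, with a fold interval of 0.863 to 1.17, and 0.01 ± 0.12 for Aldh1l1, with a fold interval of 0.840 to 1.21 (adjusted p = 0.989 for both).

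Shmt1 read 9.79, 9.75 and 9.64 with TFA, 9.64, 9.80 and 9.70 with MSG, 9.85, 9.84 and 9.26 with ASP, and 9.70, 9.62 and 9.75 with ASP + MSG. Shmt2 read 9.68, 9.62 and 9.52 with TFA, 9.56, 9.75 and 9.58 with MSG, 9.72, 9.76 and 9.25 with ASP, and 9.51, 9.48 and 9.72 with ASP + MSG. ASP pools 1 and 2 were above every TFA pool in Shmt1, Shmt2, Aldh1l1 and Mthfd1, and pool 3 was below all of them. The difference of ASP from TFA was -0.08 ± 0.13 (SE) for Shmt1, with a fold interval of 0.779 to 1.15 (adjusted p = 0.895), and -0.03 ± 0.12 for Shmt2, with a fold interval of 0.815 to 1.18 (adjusted p = 0.971).

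ASP + TFA pool 3 decided the sign of some of these differences. Without it the ASP difference from TFA was 0.17 for Aldh1l1, 0.11 for Mthfd1, 0.11 for Shmt1 and 0.13 for Shmt2 (adjusted p from 0.585 to 0.720), and that of Adh4 went from -0.16 to 0.00. The pool was also the one with the most acinar transcripts. With the acinar mean as a covariate the ASP differences of the 4 genes were -0.08 to 0.02. Averaged over pools, the acinar mean was nearly the same with ASP and with TFA, so this covariate could hardly move these differences. The part of acinar RNA in pool 3 was not tested by it. With the muscle mean as a covariate, where the TFA pools stand apart, the ASP differences were -0.34 to -0.42 (limma, adjusted p from 0.466 to 0.548). The muscle transcripts and the TFA group itself cannot be told apart.

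Over the 12 pools, the 6 pairs among the 4 folate enzymes correlated with Pearson r between 0.853 and 0.942 (Spearman's rho 0.839 to 0.951, n = 12 pools). Genes with a mean log2 of 7 or more and at least 3 probe sets served as background. Of these, 0.0386% to 0.579% had an r at least as high with 1 enzyme of the pair. The 15 pairs without a folate enzyme ran from -0.40 to 0.73, and the 24 mixed pairs from -0.03 to 0.68. After subtraction of the diet means the folate pairs gave 0.886 to 0.953, without ASP + TFA pool 3 0.799 to 0.909, and without the 2 pools farthest from the median 0.816 to 0.927. These are descriptions of 12 arrays that share a normalization, and genes of like level moved with them. Genes with a mean between 9 and 10 on the log2 scale, 1442 in number, averaged 9.38 in the lowest array and 9.55 in the highest. After cyclic loess, a normalization that evens such shifts and was added after they were seen, the folate pairs gave 0.704 to 0.895.

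In ASP + TFA pool 3 the log2 deviation from the mean of 12 pools was -0.43 for Shmt1, -0.34 for Shmt2, -0.30 for Aldh1l1 and -0.22 for Mthfd1, while the 500 genes nearest to each in level deviated by -0.08 to -0.05. Relative to those genes, Shmt1 stood at -0.36, Shmt2 at -0.26, Aldh1l1 at -0.25 and Mthfd1 at -0.14 in that pool. The correlation of each gene with the acinar mean over the 12 pools was -0.86 for Shmt2, -0.77 for Shmt1, -0.77 for Mthfd1 and -0.76 for Aldh1l1. It was -0.59 for Adh4 and between -0.47 and -0.14 for the other 5. The median over 7768 genes of liver level was -0.39, and 1.04% to 6.41% of those genes stood at or below the values of the 4 folate enzymes. Within the 7 pools with the fewest acinar transcripts the 4 correlations were -0.22 to -0.66, and without ASP + TFA pool 3 over the other 11 they were -0.60 to -0.77. Without the 2 pools farthest from the median acinar mean they were -0.50 to -0.69. After cyclic loess they were -0.50 to -0.75, with 1.66% to 13.8% of genes of liver level at or below them. The part of acinar RNA in these values was not tested beyond this.

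**Figure D3:**
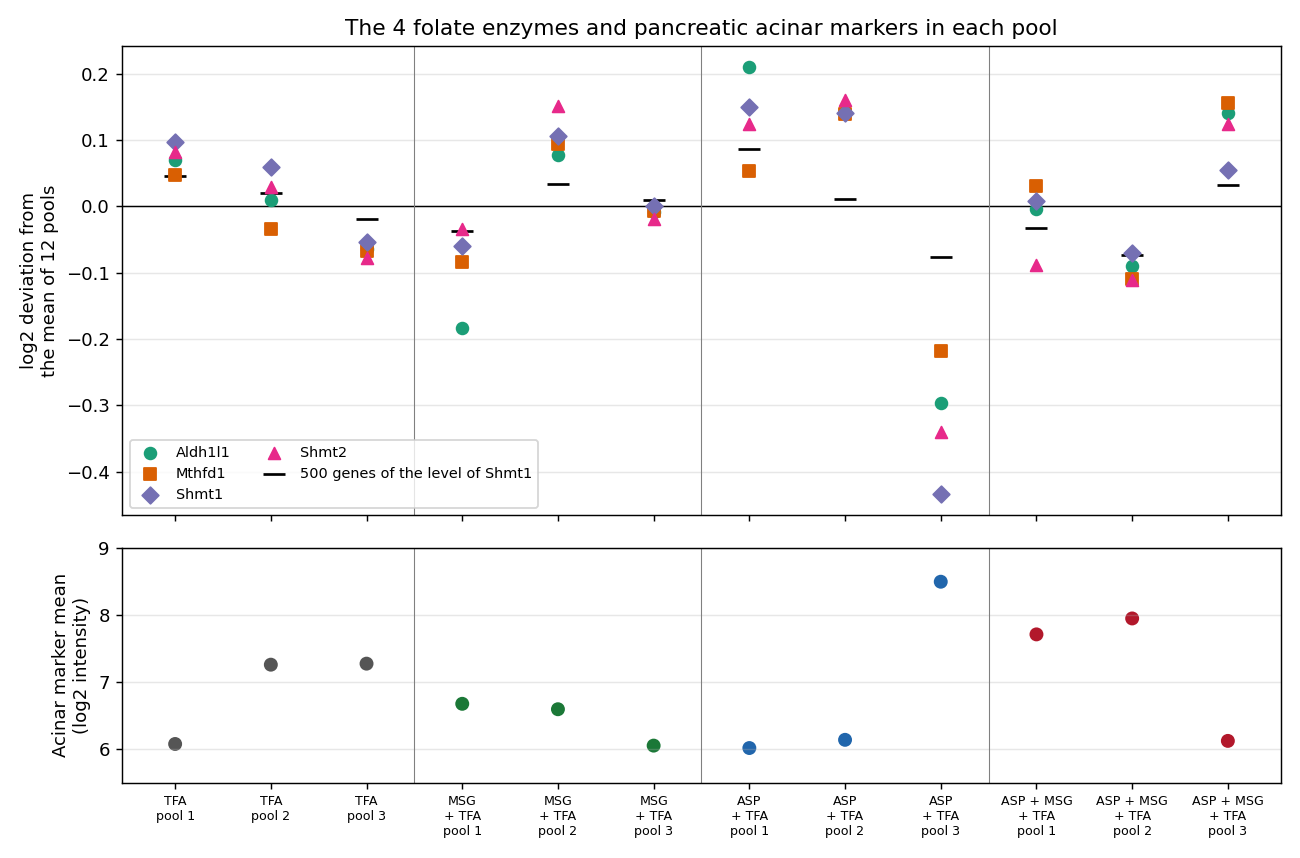
Upper panel: log2 deviation of Aldh1l1, Mthfd1, Shmt1 and Shmt2 from their mean of 12 pools (vertical axis) in each pool (horizontal axis), with black dashes for the mean of the 500 genes nearest to Shmt1 in level. Lower panel: mean log2 intensity of 14 pancreatic acinar markers in the same pools, which is highest, at 8.50, where the 4 enzymes are lowest.

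Because the 4 folate enzymes moved together, the 250 bases before an annotated start of each are shown, from RefSeq on mouse build GRCm38.p6, on the strand of the gene. Capitals mark letters searched on both strands, GGGCGG (the GC box) and CCAAT (the CAAT box), and the coordinates follow.

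Aldh1l1: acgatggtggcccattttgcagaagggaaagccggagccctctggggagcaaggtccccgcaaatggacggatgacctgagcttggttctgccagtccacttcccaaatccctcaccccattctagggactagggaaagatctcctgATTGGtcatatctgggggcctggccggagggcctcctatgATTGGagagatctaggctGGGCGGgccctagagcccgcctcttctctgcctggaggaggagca
Mthfd1: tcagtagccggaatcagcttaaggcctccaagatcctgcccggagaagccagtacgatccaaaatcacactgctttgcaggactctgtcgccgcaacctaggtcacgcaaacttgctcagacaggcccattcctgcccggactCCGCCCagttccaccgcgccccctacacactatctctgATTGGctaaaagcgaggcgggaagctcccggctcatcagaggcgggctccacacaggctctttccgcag
Shmt1: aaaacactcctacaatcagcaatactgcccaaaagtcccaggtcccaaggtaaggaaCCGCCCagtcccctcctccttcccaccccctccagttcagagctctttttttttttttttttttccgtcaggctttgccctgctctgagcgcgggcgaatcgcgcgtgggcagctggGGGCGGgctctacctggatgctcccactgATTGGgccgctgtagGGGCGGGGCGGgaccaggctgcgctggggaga
Shmt2: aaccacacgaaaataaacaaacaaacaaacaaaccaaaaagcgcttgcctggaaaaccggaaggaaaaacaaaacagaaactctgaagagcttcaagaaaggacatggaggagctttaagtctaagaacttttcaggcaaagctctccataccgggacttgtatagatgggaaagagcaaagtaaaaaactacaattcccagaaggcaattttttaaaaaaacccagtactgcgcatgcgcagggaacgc

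The windows lie at chr6:90550543-90550792 (plus strand) for Aldh1l1, chr12:76254982-76255231 (plus) for Mthfd1, chr11:60811266-60811515 (minus) for Shmt1 and chr10:127522445-127522694 (minus) for Shmt2. Aldh1l1 had 1 GC box and 2 CAAT boxes, Mthfd1 1 of each, and Shmt1 4 GC boxes, 2 of them overlapping, and 1 CAAT box. Shmt2 had neither in this window. The Mthfd1 window lies inside the annotated gene, which begins at 76254406, so that its boxes do not lie upstream of the whole gene. The Aldh1l1 window runs past the first base of its gene, at 90550768. Of 32851 windows of the same kind in the table, 32.7% held GGGCGG and 33.8% held CCAAT on either strand. The letters TATAAA (the TATA box, in 12.4% of all windows), CACGTG (the E-box, 6.02%) and TGATGCAA (the ATF4 element, 0.791%) were in none of the 4 windows. GC content was 59.6%, 59.2%, 60% and 40.8% in the order above, with a median of 52.4% over all windows. The same boxes were in windows of members outside the folate arm. Cat had 1 GC box and 4 CAAT boxes, Esd 3 GC boxes, and Adh5 3 GC boxes in 1 window and neither box in its other. Adh4 had 1 CAAT box, and Adh1 neither. The match of letters is a description, and nothing here measures binding.

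Single probe sets were compared as well, since an average over a gene can hide a change in part of its transcript. With limma and the rule of an adjusted p under 0.05 with a 1.4-fold change, 0 of the 147 probe sets were called against TFA. The shares of all probe sets called were 0% (MSG), 0.00943% (ASP) and 0.00141% (ASP + MSG). Under an unadjusted p of 0.05 there were 10 of 147 with MSG (6.8%, beside 6.47% of all probe sets), 7 with ASP (4.76%, beside 9.81%) and 4 with ASP + MSG (2.72%, beside 7.83%). With a 1.4-fold change as well there were 5 (3.4%, beside 5.38%), 6 (4.08%, beside 8.31%) and 2 (1.36%, beside 6.54%).

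Probe sets of a single gene went both ways. Those of Shmt2 ranged from -0.72 to 0.63 with ASP against TFA, a range that lay in probe sets of at least the median level of the array. Among such brighter probe sets those of Mthfd1 ranged from -0.52 to 0.52 and those of Cat from -0.28 to 0.44. The lower ends seen in the plot of single probe sets, -0.98 for Mthfd1 and -0.67 for Cat, were dim probe sets, with mean log2 intensities of 6.87 and 6.52 beside a median of 6.89. The Shmt2 probe set with the lowest adjusted p of the 147 read 12.18, 12.03 and 12.07 in the TFA pools and 11.30, 11.57 and 11.38 in the ASP pools. It did not overlap between these diets, at a difference of -0.67 (adjusted p = 0.235), and it is named for its value. Another Shmt2 probe set read 9.01, 9.05 and 8.88 with TFA and 10.03, 9.66 and 9.13 with ASP, a difference of 0.63 (adjusted p = 0.406). The mean over all 16 stayed at -0.03.

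**Figure D4:**
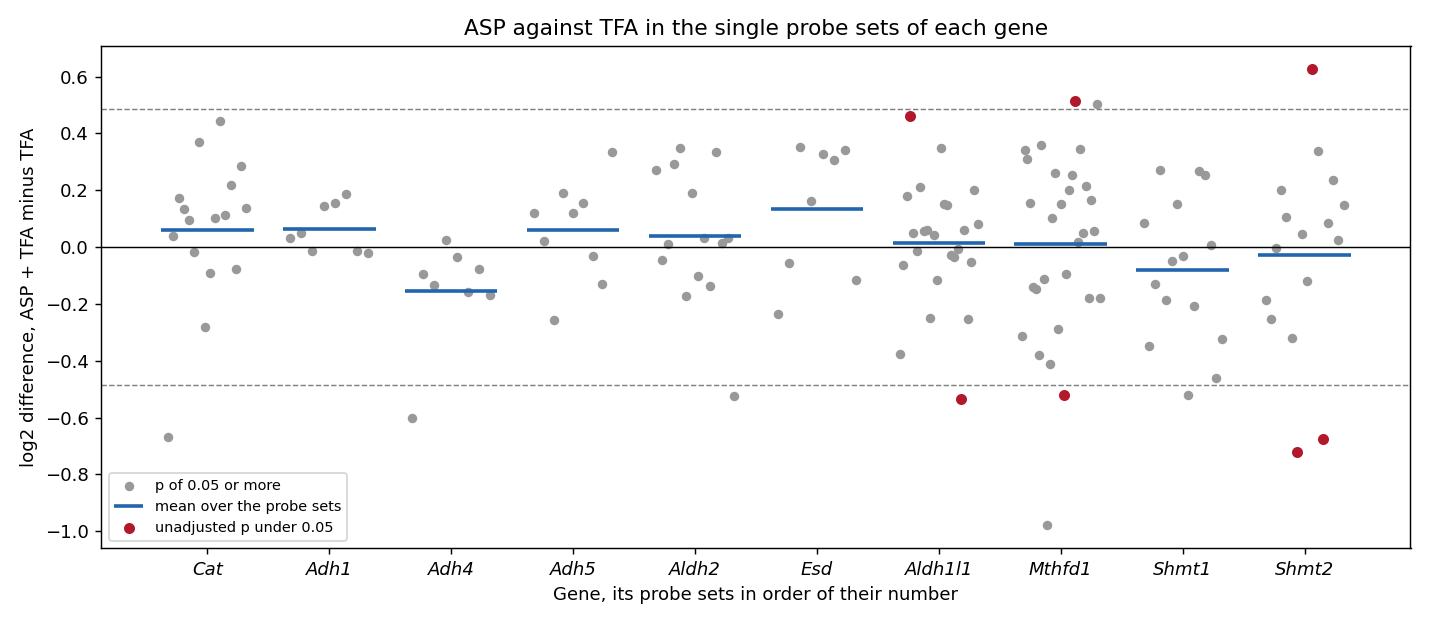
Log2 difference between ASP + TFA and TFA (vertical axis) in each of the 147 probe sets, by gene (horizontal axis). Grey points have an unadjusted p of 0.05 or more, red points, 7 in number, are under it, blue bars are the means over the probe sets of a gene, and dashed lines mark 1.4-fold.

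Aspartame was also read as a main effect, over the 6 pools that received it and the 6 that did not. The differences of the 10 genes lay between -0.05 and 0.09 on the log2 scale, and their 95% intervals ran from 0.833-fold (Adh4) to 1.18-fold (Esd). By limma 0 of 10 genes were called, 0 were under an unadjusted p of 0.05, and 0% and 9.12% of all genes were. Esd had the largest difference, 0.09 ± 0.07 (SE, adjusted p = 0.749), and Mthfd1 the smallest, 0.02 ± 0.07 (adjusted p = 0.964).

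No gene showed an interaction of ASP and MSG by limma (0 of 10 called, beside 0.0686% of all genes, and 0 under an unadjusted p of 0.05, beside 7.39%). The estimates ran from -0.20 for Adh5 to 0.22 for Adh4, whose interval reached 1.57-fold and was the only one of the 10 to pass 1.4-fold. When MSG was in both groups, limma called 0 of 10 genes for aspartame (0.0049% of all genes), with Adh5 alone not overlapping, lower, beside 6.01% of all genes. When aspartame was in both, it called 0 of 10 for MSG (0.0245% of all genes), and none stood wholly above or below, beside 4.31% and 6.63% of all genes. In these last 2 contrasts, by limma, 0 of 10 were under an unadjusted p of 0.05, beside 6.14% and 8.41% of all genes. The F test for any diet called 0 of 10 (0.113% of all genes) and put 0 under an unadjusted p of 0.05 (9.16%), with p from 0.233 for Adh5 to 0.977 for Mthfd1.

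Genes next to the 10 in these pathways were read from 7 lists with 84 genes, of which 79 were measured. None of the 79 passed the test in any of the 7 contrasts by limma. Against TFA 1 of them was under an unadjusted p of 0.05 for MSG, 1 for ASP and 2 for ASP + MSG, at 1.27%, 1.27% and 2.53%, less than the shares of all genes given above. There were 2 for aspartame given (2.53%, beside 9.12% of all genes), 4 for the interaction (5.06%, beside 7.39%), 5 for ASP + MSG against MSG (6.33%, beside 6.14%) and 3 for ASP + MSG against ASP (3.8%, beside 8.41%). The median differences with ASP lay between -0.03 for 5 other genes of alcohol oxidation and 0.03 for 11 of methyl group and choline breakdown, beside 0.02 over all genes.

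Named by the smallest p of the F test, 2 genes per list are described here, none of which passed. Tyms, thymidylate synthase, which takes a carbon from folate for DNA synthesis, was read by only 3 probe sets. It read 7.50, 7.50 and 7.77 with TFA and 7.04, 7.02 and 7.18 with ASP + MSG. These groups did not overlap, and the difference was -0.51 ± 0.15 (SE, adjusted p = 0.308). In ASP pools Tyms read 7.58, 6.90 and 7.59, and with MSG 7.50, 7.38 and 7.35. Atic, of purine synthesis, read 7.97, 8.05 and 8.17 with TFA and 8.24, 8.31 and 8.30 with MSG, a difference of 0.22 ± 0.11 (adjusted p = 0.872).

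Chac1, which breaks down glutathione, the partner of formaldehyde, had the smallest F-test p of the 79 (0.0106, adjusted p = 0.384). Only 4 probe sets read Chac1, and in every pool it lay under 6.89, the median level of probe sets. It read 6.61, 6.50 and 6.32 with TFA, 6.85, 6.82 and 6.39 with MSG, 6.88, 6.62 and 6.61 with ASP, and 6.43, 6.00 and 6.18 with ASP + MSG. The ASP + MSG pools lay below all ASP pools, and they overlapped the other 2 diets. The interaction was -0.71 ± 0.20 (SE, adjusted p = 0.336). Gclc, the rate-limiting enzyme of glutathione synthesis, was higher by 0.20 ± 0.08 both with MSG and with ASP + MSG against TFA (adjusted p of 0.817 and 0.448).

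Gnmt, which uses methyl groups of S-adenosylmethionine to methylate glycine, read 13.07, 13.02 and 13.09 with ASP and 13.42, 13.25 and 13.29 with ASP + MSG. The pools of these diets did not overlap, at a difference of 0.26 ± 0.08 (SE, adjusted p = 0.383). Bhmt, which remethylates homocysteine with betaine, differed by 0.31 ± 0.12 between ASP + MSG and MSG (adjusted p = 0.757). Aldh16a1, of the aldehyde dehydrogenase family, read 7.05, 6.87 and 6.83 with ASP and 6.67, 6.49 and 6.73 with ASP + MSG, which did not overlap, a difference of -0.29 ± 0.09 (adjusted p = 0.405). Aldh3a1, which at 5.78 to 6.25 lay under the probe set median of 6.89 in every pool, differed by 0.28 ± 0.10 between ASP + MSG and MSG (adjusted p = 0.719). The remaining 6, Adh6a and Adh6b of alcohol oxidation, Acox2 and Acox3, peroxisomal oxidases that make hydrogen peroxide, and Prdx1 and Txn1, which help to remove it, had F-test p from 0.258 to 0.523.

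For each of the 10 genes the 2 genes with the most similar profile over the 12 pools were taken from 7213 genes of liver level. Adh1 was most like Alb, the gene of albumin, with r = 0.91, and Ppm1a, with r = 0.91. Cat was most like Tmem25 (0.93) and Gpr107 (0.89), and Adh4 like Fam45a (0.95) and Tubg1 (0.95). Adh5 stood with Inpp4a (0.92) and Cxcl1 (0.92), Aldh2 with Rmnd1 (0.91) and Ermp1 (0.90), and Esd with Nrbf2 (0.92) and Abhd3 (0.91). Of the folate enzymes, Aldh1l1 stood with Ndufaf3 (0.94) and Dpf2 (0.93), Mthfd1 with Kdr (0.93) and Ttc17 (0.93), Shmt1 with Pepd (0.95) and Rnf216 (0.95), and Shmt2 with Parp14 (0.95) and Cct8 (0.95). All are Pearson r over n = 12 pools, taken as the highest of many, and carry no test.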

How the data were processed

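Liver RNA was hybridized to 12 Affymetrix Mouse Gene 1.0 ST arrays. Background adjustment and summary by GCRMA and quantile normalization, in Partek, were done by the authors, who deposited linear intensities. These were log2-transformed with nothing added, the lowest being 14.8. Of 241576 rows, 212138 had 1 gene symbol, 4672 several and 24766 none, and only the first were used. Log2 values of the rows of a gene were averaged. Symbols of the array stayed as annotated, and listed genes absent from it were sought under older symbols given by 49997 RefSeq genes. The arrays' annotation used here gives no coordinates of probe sets.

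Diets were compared in a group-means model over 12 arrays with limma 3.58.1 (lmFit, eBayes, F test) in R 4.3.3 with data.table (version 1.17.8), with Benjamini-Hochberg adjustment over all genes within each comparison. Genes were called where the adjusted p was under 0.05, and a probe set needed a 1.4-fold change as well. The model was tested on simulated data. P-values measure only how pools vary, and precision is limited by the number of arrays. Figures used matplotlib 3.10.9 with pandas 2.3.3 and numpy 2.4.6 under Python 3.11.15.

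Named were all 10 genes, the 2 genes per pathway list with the smallest F-test p, and per gene the 2 with the highest r over the arrays (mean log2 of 7 or more, at least 3 probe sets, without unnamed models and olfactory or vomeronasal receptors). The genes and the 7 pathway and 11 cell type lists were chosen with earlier results of these data known. Of the marker lists, skeletal muscle alone had genes that passed against TFA. Alternatives changed the normalization, the filter on dim rows, the way rows form a gene, the variance model, weights, a replicate block, marker covariates and the arrays included.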

Additional observations from a re-analysis of the deposited data

How the results depend on the processing

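Under every alternative run, including leaving out each array in turn, 0 of the 10 genes were called in each of the 7 contrasts and by the F test, and 0 of 147 probe sets at an adjusted p under 0.05 with a 1.4-fold change. With an unadjusted p under 0.05 in place of the adjusted one, 11 of 147 probe sets were past the threshold in at least 1 comparison against TFA. By comparison these were 3.4% (MSG), 4.08% (ASP) and 1.36% (ASP + MSG), below the 5.38%, 8.31% and 6.54% of all probe sets. Over 1710 refitted log2 differences the lowest adjusted p was 0.228 (Adh5, ASP + MSG against ASP, without ASP + TFA pool 3), 15 had an unadjusted p under 0.05, 65 moved by over 1 SD between pools and 182 changed sign, none of them called. The largest value to change sign was the Adh5 interaction, -0.20, which was 0.17 with the median over probe sets. Most that moved came with the muscle mean as a covariate (27 of 70), the median over probe sets (17 of 70) and the loss of the 3 arrays with the most acinar transcripts (14 of 70).

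Same-numbered pools gave no common sign of pairing, with correlations of -0.34 to 0.34. With the replicate number as a block, 0 of the 10 genes were called in each comparison. Over all genes the block gave 81 calls in place of 58 with ASP and 14 in place of 8 with ASP + MSG. It gave 6 in place of 14 for the interaction and 11 in place of 23 by the F test. Counts over all genes depended on the settings. They ran from 1 to 14 with MSG, from 2 to 670 with ASP, from 1 to 76 with ASP + MSG, from 0 to 28 for aspartame given, from 0 to 142 for the interaction, from 0 to 5 and from 1 to 235 for ASP + MSG against MSG and against ASP, and from 0 to 295 by the F test, with the highest count under array weights except for ASP + MSG against MSG. With 3 pools a diet, differences inside the intervals given could not be resolved.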
